A study of Mus musculus with 18 samples.

Results

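Sperm small RNA of directly exposed founder males was compared with that of control males of the same generation. The comparison takes 6 of the 18 libraries in the series, all of those labelled F0: 3 control libraries (F0 Con) and 3 libraries of exposed males (F0 NHS). Per the labels, all are sperm of ICR mice, an outbred strain, and NHS males were treated with ammonia (NH3) and hydrogen sulphide (H2S) for 5 weeks from 3 weeks of age. The labels name no dose, no age at collection and no handling of the controls, and do not say whether a library is 1 male or a pool. All p-values therefore measure how libraries of a group vary, and some of that variation may be technical.

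Mature sperm makes almost no new RNA, and its small RNA is a mixture of what is left from the testis and what is taken up during passage through the epididymis. MicroRNAs (miRNAs) are cut from hairpins, and a miRNA finds its targets through its seed, bases 2 to 8 of the mature strand. Either strand (arm) of the hairpin can be kept, and the arms carry different seeds. PIWI-interacting RNAs (piRNAs) are longer, mostly begin with uridine and silence transposons in the germ line. Fragments of tRNA, rRNA and small nucleolar RNA make up much of the rest of a sperm library.

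Values are TPM, here the reads of an entry per 1000000 reads of its library with no length term, and library totals ran from 18737016 to 29430555 reads, so that 1 TPM is 18.7 to 29.4 reads. All 6 lists are complete. F0 Con 2 and F0 NHS 3 stood apart from the other 4 libraries: novel_mir1, a predicted hairpin, was at 5685 and 2378 TPM there and at 82.1 to 174 TPM elsewhere. Over the 1114 predicted piRNAs tested, Spearman's rho across entries, which are not independent, was -0.0186 to 0.179 between either of these 2 libraries and any of the other 4, and 0.584 to 0.833 between libraries of the same kind. Because 1 such library lies in each group, results are given over all 6 libraries and, where it matters, over the other 4 alone (F0 Con 1 and 3, F0 NHS 1 and 2; 2 against 2). As for what the samples hold, germ cell miRNAs of the X-linked testis cluster took 0.652% to 2.33% of miRNA reads. miR-34b, miR-34c and miR-449a were also taken as germ cell markers. The miR-34 and miR-449 family took 1.28% to 1.61% of miRNA reads in Con and 1.69% to 5.32% in NHS. Smooth muscle and stromal miRNAs took 14.0% to 44.8%, red blood cell miRNAs 2.55% to 13.6% and epithelial miRNAs 4.03% to 6.01%. In such bulk samples, fewer cells of a type and less RNA per cell cannot be told apart.

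The sequences that the results turn on come first. miR-34b and miR-34c, neighbours on chromosome 9 (minus strand, GRCm38.p6), were read almost wholly from their 3p arms, which share a seed (capitals). These and the next miRNA sequences are from RefSeq.
miR-34b-3p (chr9:51103574-51103595): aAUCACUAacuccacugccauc
miR-34c-3p (chr9:51103044-51103065): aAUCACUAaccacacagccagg

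The next 3 names belong to let-7c, the most abundant let-7 member, and show how different the strands are among which its reads moved from library to library. The 5p strand comes from hairpins on both chromosomes 15 and 16.
let-7c-5p (chr16:77599672-77599693 and chr15:85706616-85706637, plus strand): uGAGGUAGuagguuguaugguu
let-7c-1-3p (chr16:77599717-77599738, plus strand): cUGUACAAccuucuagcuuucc
let-7c-2-3p (chr15:85706664-85706685, plus strand): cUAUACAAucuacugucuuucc

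miR-26a and miR-26b share the seed of their 5p strands but, with arms summed, differed in how they stood between the groups. miR-15b is a case in which the main arm differed between the groups, although no arm difference passed the adjusted threshold.
miR-26a-5p (chr9:119031811-119031832 and chr10:126995543-126995564, plus strand): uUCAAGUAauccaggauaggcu
miR-26b-5p (chr1:74394324-74394344, plus strand): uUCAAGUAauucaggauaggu
miR-15b-5p (chr3:69009775-69009796, plus strand): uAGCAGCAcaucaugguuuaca
miR-15b-3p (chr3:69009813-69009834, plus strand): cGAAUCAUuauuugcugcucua

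The 4 predicted miRNA loci that fell in exposed sperm are given by the deposited sequences (mm10). In the first 2, shown as whole hairpins, capitals mark the predicted mature strand; of the other 2 only the mature strand is shown, in lower case.
novel_mir6 (chr13:44749631-44749711, minus strand): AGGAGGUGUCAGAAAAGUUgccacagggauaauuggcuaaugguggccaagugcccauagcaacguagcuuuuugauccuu
novel_mir5550 (chr11:117077243-117077326, plus strand): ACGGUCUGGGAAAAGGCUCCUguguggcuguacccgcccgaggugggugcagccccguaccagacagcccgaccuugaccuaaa
novel_mir4212 (chr7:109865617-109865693, minus strand), mature strand: gggcgggcggggccgggggu
novel_mir4375 (chr7:4740244-4740299, minus strand), mature strand: ggcggcgcggggcggggg

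Predicted piRNAs behind the results are shown because their sequences occur in other RNAs or overlap one another. In this set a T at position 1 or an A at position 10, the marks of piRNA biogenesis, would be in capitals, and none of the 7 carries either.
novel_pir790242, in a LINE/L1 copy (chrX:21679356-21680794): accaagcgttggattgttc
novel_pir790232, in the same copy: caccaagcgttggattgttc
novel_pir790213, in the same copy: attcaccaagcgttggattgttc
novel_pir745277, in an ERVL-MaLR copy (chr8:66396315-66396534): gttcttagttggtggagc
novel_pir661187, in a LINE/L1 copy (chr5:36536589-36537344): aagactatactttcagggatc
novel_pir83653, in an ERV1 copy (chr10:74719672-74719795): cgtttcccggccaatgcacca
novel_pir249668, in an ERV1 copy (chr11:57559807-57559926): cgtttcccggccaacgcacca

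The first comparison asks how reads were divided among the classes of small RNA. Known piRNAs took a larger share of reads in every NHS library, and predicted siRNAs likewise, while the other 8 classes overlapped between the groups. Known piRNAs held 4.89%, 2.42% and 4.60% of reads in Con 1, 2 and 3 and 9.33%, 11.5% and 5.45% in NHS 1, 2 and 3. The means were 3.97% ± 1.35 and 8.77% ± 3.08 (SD, n = 3 each), a ratio of 2.21. Exact permutation of the labels gave p = 0.1, two-sided, the smallest that 3 against 3 libraries allow, and 0.5 after Benjamini-Hochberg adjustment over the 10 classes. No share could therefore pass the threshold of 0.05.

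In NHS 1 and NHS 2 the higher piRNA share rested on a single entry. mmu_piR_000691, the most abundant known piRNA, stood at 1176, 2462 and 6610 TPM in Con and at 49918, 79404 and 2090 TPM in NHS. It was high in NHS 1 and NHS 2 and within the range of the controls in NHS 3. It alone held 0.118% to 0.661% of all reads in Con and 4.99%, 7.94% and 0.209% in the NHS libraries. Without it, known piRNAs took 4.78%, 2.18% and 3.96% of the remaining reads in Con and 4.57%, 3.89% and 5.25% in NHS. The groups then overlapped, although NHS 3 still lay above every control. Within the known piRNAs, the 10 most abundant entries of each library held 60.7%, 57.6% and 43.6% of piRNA reads in Con and 76.1%, 83.0% and 71.0% in NHS, with no overlap (exact permutation p = 0.1, adjusted 0.5).

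Known miRNAs were the largest class, at 51.8%, 40.6% and 57.4% of reads in Con and 41.8%, 36.4% and 52.6% in NHS. The means, 49.9% ± 8.56 and 43.6% ± 8.29 (SD, n = 3), differed by less than the spread within each group (exact permutation p = 0.5). Reads on repeats took 19.1%, 28.6% and 16.4% in Con and 27.9%, 26.9% and 24.0% in NHS. Rfam families, the deposited class of structural RNA, took 3.34% to 6.23% in Con and 3.99% to 5.46% in NHS. Predicted miRNA loci held 0.364% to 0.489% of reads in 5 libraries and 7.30% in Con 2. In Con 2 most of that was novel_mir6624 (35202 TPM) and novel_mir4 (29470 TPM), and without these and novel_mir1 the class held 0.241% to 0.287% in Con and 0.174% to 0.319% in NHS.

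**Figure D1:**
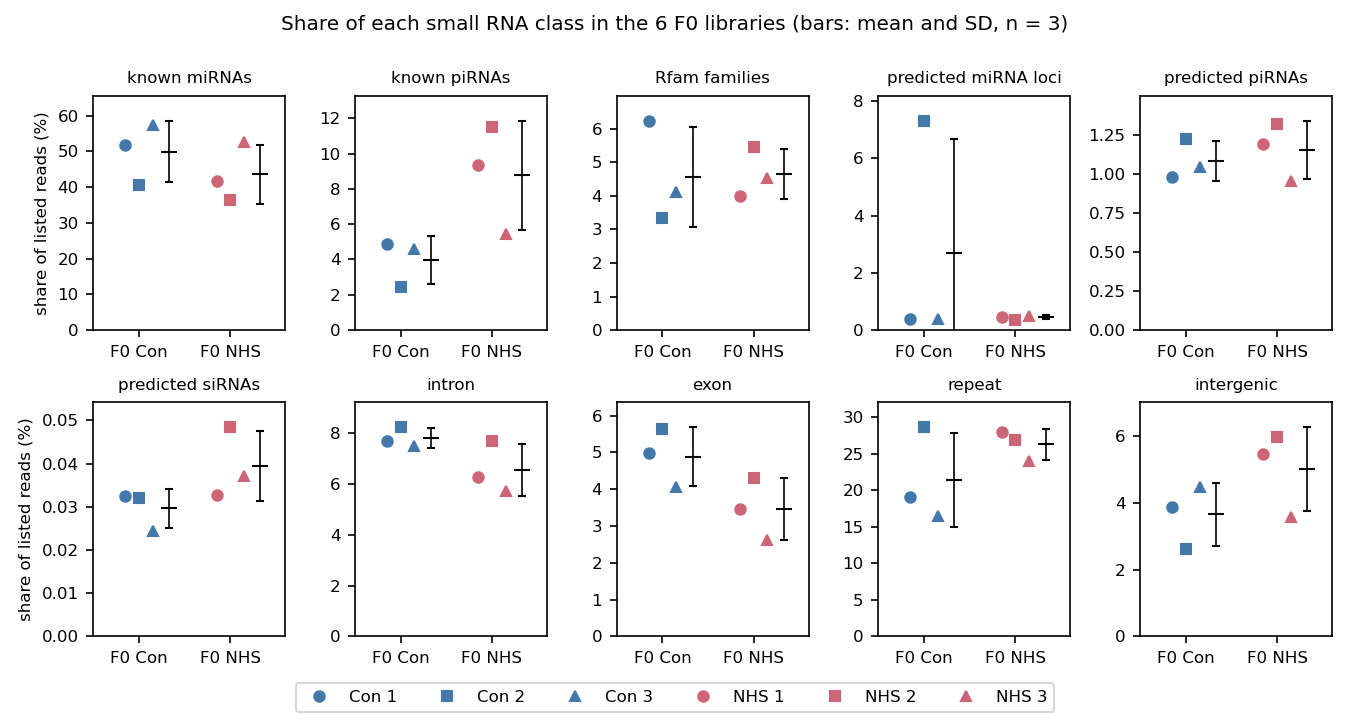
Share of listed reads (%, y axis, from 0) of 10 classes of small RNA in F0 Con (blue) and F0 NHS (red); each point is a library, and the black bars are the group mean and SD (n = 3; cut at 0 for predicted miRNA loci). The 3 NHS libraries lie above the 3 Con libraries for known piRNAs, and 1 control library, Con 2, carries the high share of predicted miRNA loci.

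The miRNA comparison asks which miRNAs stood at another level in exposed sperm. Reads of all arms of a miRNA were summed, and 461 miRNAs passed the filter of 1 CPM (counts scaled as TPM) in at least 3 libraries. edgeR's quasi-likelihood test called 0 of them at an adjusted p under 0.05 (0.0% in each direction), with a smallest adjusted p of 0.416. At an unadjusted p under 0.05 there were 39 (8.46%). DESeq2 called 2 (0.434%), both lower in NHS: miR-5121 and miR-1291, the latter named here after its value was seen. The 3 NHS libraries lay above the 3 Con libraries for 52 miRNAs (11.3%) and below them for 24 (5.21%). The median log2 fold change was 0.05, and 240 miRNAs (52.1%) had a higher fitted level in NHS.

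miR-34b and miR-34c, transcribed together in meiotic germ cells and in ciliated epithelium, were among the 5 with the smallest p on the higher side. miR-34c stood at 1477, 1633 and 3001 TPM in Con and at 5977, 5717 and 2862 TPM in NHS. NHS 1 and NHS 2 lay above every control, and NHS 3 lay within their range (log2 fold change 1.31, SE 0.41; edgeR adjusted p = 0.416). miR-34b stood at 2864, 1881 and 3931 TPM in Con and at 6232, 12297 and 3315 TPM in NHS, with the same 2 libraries above all controls (1.37, SE 0.48; edgeR adjusted p = 0.416). Over the 4 libraries low in novel_mir1, the log2 fold changes were 1.73 and 1.69.

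The family's other tested members, miR-34a and miR-449a, did not stand above the controls in NHS 1 and NHS 2. miR-34a, a p53 target, was at 2060, 1174 and 1364 TPM in Con and at 897, 680 and 2127 TPM in NHS. miR-449a, a miRNA of multiciliated epithelium, was at 1754, 502 and 949 TPM in Con and at 529, 641 and 607 TPM in NHS (-0.83, SE 0.73). The seed it shares with miR-34a and miR-34b is that of their 5p strands, not of the 3p strands shown for miR-34b and miR-34c. miR-449b and miR-449c did not pass the filter. As a share of miRNA reads the family took 1.57%, 1.28% and 1.61% in Con and 3.26%, 5.32% and 1.69% in NHS. The groups did not overlap, but NHS 3 exceeded the highest control by little.

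The other miRNAs on the higher side were each at an edgeR adjusted p of 0.416. miR-615, which lies in the Hoxc cluster, was at 22.7, 7.65 and 9.87 TPM in Con and at 34.6, 39.6 and 55.3 TPM in NHS, and all 3 NHS libraries lay above all controls (1.65, SE 0.52). miR-5100 was at 8.90, 5.999 and 12.4 TPM in Con and at 150, 78.0 and 10.4 TPM in NHS. miR-5103 was at 14.9, 24.5 and 83.7 TPM in Con and at 349, 193 and 25.9 TPM in NHS. For both, NHS 1 and NHS 2 were high and NHS 3 was not.

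On the lower side, miR-26b gave the tightest groups. It stood at 5076, 3644 and 6333 TPM in Con and at 1936, 1568 and 2564 TPM in NHS, with all NHS libraries below all controls (-1.31, SE 0.38; edgeR adjusted p = 0.416). Its paralog miR-26a, with the same 5p seed, was at 31808, 14604 and 38294 TPM in Con and at 26729, 22616 and 22053 TPM in NHS (-0.17, SE 0.36). The groups overlapped for miR-26a. For miR-26b they were apart only with its arms summed. miR-26b-5p was at 722, 267 and 5649 TPM in Con and at 1659, 919 and 1200 TPM in NHS. miR-26b-3p was at 4354, 3377 and 685 TPM in Con and at 278, 649 and 1364 TPM in NHS. The difference between the paralogs was not tested.

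miR-5121 was 1 of the 2 miRNAs that DESeq2 called. It stood at 395, 61.5 and 105 TPM in Con and at 6.59, 12.6 and 48.6 TPM in NHS, with no overlap (-3.15, SE 0.79; edgeR adjusted p = 0.416; DESeq2 adjusted p = 0.00295). miR-144, made with miR-451a in erythroid cells, was at 115, 27.02 and 286 TPM in Con and at 13.3, 27.01 and 25.0 TPM in NHS (-2.57, SE 0.82). Con 2 and NHS 2 stood at almost the same level there. miR-451a itself was at 68695, 9995 and 76735 TPM in Con and at 19829, 22799 and 35400 TPM in NHS, and the groups overlapped (-0.90, SE 0.51). miR-450a, of an X-linked cluster, was at 21.2, 12.8 and 27.7 TPM in Con and at 6.05, 11.2 and 6.52 TPM in NHS (-1.36, SE 0.50). miR-3535 completed the 5 on the lower side, at 73.0, 2.65 and 92.0 TPM in Con and at 13.2, 10.7 and 3.45 TPM in NHS.

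The let-7 family, which restrains growth and promotes differentiation, had a lower fitted level in NHS for all 9 members; their median log2 fold change was -0.57, beside 0.05 over all tested miRNAs. For 4 of the 9 the NHS libraries lay below all controls, beside 5.21% of all tested miRNAs, and 0 of the 9 were called. let-7g was at 7410, 8362 and 16219 TPM in Con and at 4166, 4309 and 6384 TPM in NHS (-1.11, SE 0.50; edgeR adjusted p = 0.529). let-7c, the most abundant member, was at 34976, 9253 and 48667 TPM in Con and at 27262, 23738 and 22776 TPM in NHS (-0.19, SE 0.49). Con 2, the control that stands apart, held the lowest let-7c level of the 6. As a share of miRNA reads the family ran from 8.81% to 22.3% in Con and from 11.0% to 15.9% in NHS.

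Among other families, 5 of 5 miR-30 members and 3 of 3 miR-29 members, the latter known to repress collagen genes, had a lower fitted level in NHS, with medians of -0.83 and -0.79. miR-30a was at 1319, 1086 and 1699 TPM in Con and at 664, 568 and 1082 TPM in NHS, just below the lowest control in NHS 3. miR-29a was at 7533, 3832 and 4138 TPM in Con and at 1587, 1619 and 6289 TPM in NHS. The NHS 3 library was thus not low in miR-29a. The miR-17-92 cluster and its paralogs were divided, with 6 of 11 higher and a median of 0.01. In the list of hypoxia and oxidative stress miRNAs 11 of 15 were lower (median -0.40). Of 9 tested sperm miRNAs that earlier work linked to paternal stress 5 were lower and 4 higher (median -0.57), and 0 were called. Their share of miRNA reads was 0.774% to 0.844% in Con and 0.633% to 0.770% in NHS, with no overlap. Over the 4 libraries low in novel_mir1 the median of this list was -0.07, that of miR-17-92 and paralogs -0.41 and that of the miR-29 family -1.56.

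The imprinted Dlk1-Dio3 cluster on chromosome 12 is expressed from the maternal copy. Of its 37 tested members 24 had a higher fitted level in NHS and 13 a lower one (median 0.25), and 0 were called. Over the 4 libraries low in novel_mir1, 21 were higher and 16 lower (median 0.20). Over all 6 libraries, 9 members had all NHS libraries above all controls and 0 had them below. Of all tested miRNAs 11.3% lay wholly above the controls. miR-127, which targets the retrotransposon-like gene Rtl1, stood at 848, 764 and 616 TPM in Con and at 1381, 1186 and 2535 TPM in NHS (1.07, SE 0.62; edgeR adjusted p = 0.567). The cluster took 0.761%, 0.616% and 0.796% of miRNA reads in Con and 1.43%, 1.27% and 0.973% in NHS, with no overlap. The X-linked testis cluster and the Sfmbt2 cluster did not lean to a side: 9 of 19 and 11 of 24 tested members were higher.

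Markers of other cell types moved as follows, and their part in the results was not tested. Skeletal and cardiac muscle miRNAs were lower in 5 of 5 tested members (median -1.04, 0.0995% to 0.315% of miRNA reads in Con and 0.0723% to 0.300% in NHS). Epithelial miRNAs were lower in 8 of 9 (median -0.34) and red blood cell miRNAs in 3 of 4 (median -0.73, 2.55% to 13.6% and 4.87% to 6.84% of miRNA reads). Smooth muscle and stromal miRNAs were lower in 4 of 7 (median -0.03), with miR-143 at 58147, 154126 and 60076 TPM in Con and 76847, 45474 and 107157 TPM in NHS. Leukocyte miRNAs were lower in 3 of 6, endothelial ones in 2 of 2 and liver ones in 0 of 3. Over the 4 libraries low in novel_mir1 the medians were -1.71 for skeletal and cardiac muscle, -1.30 for red blood cell, -0.19 for epithelial and 0.14 for smooth muscle and stromal miRNAs. The shares of all 7 lists overlapped between the groups.

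**Figure D2:**
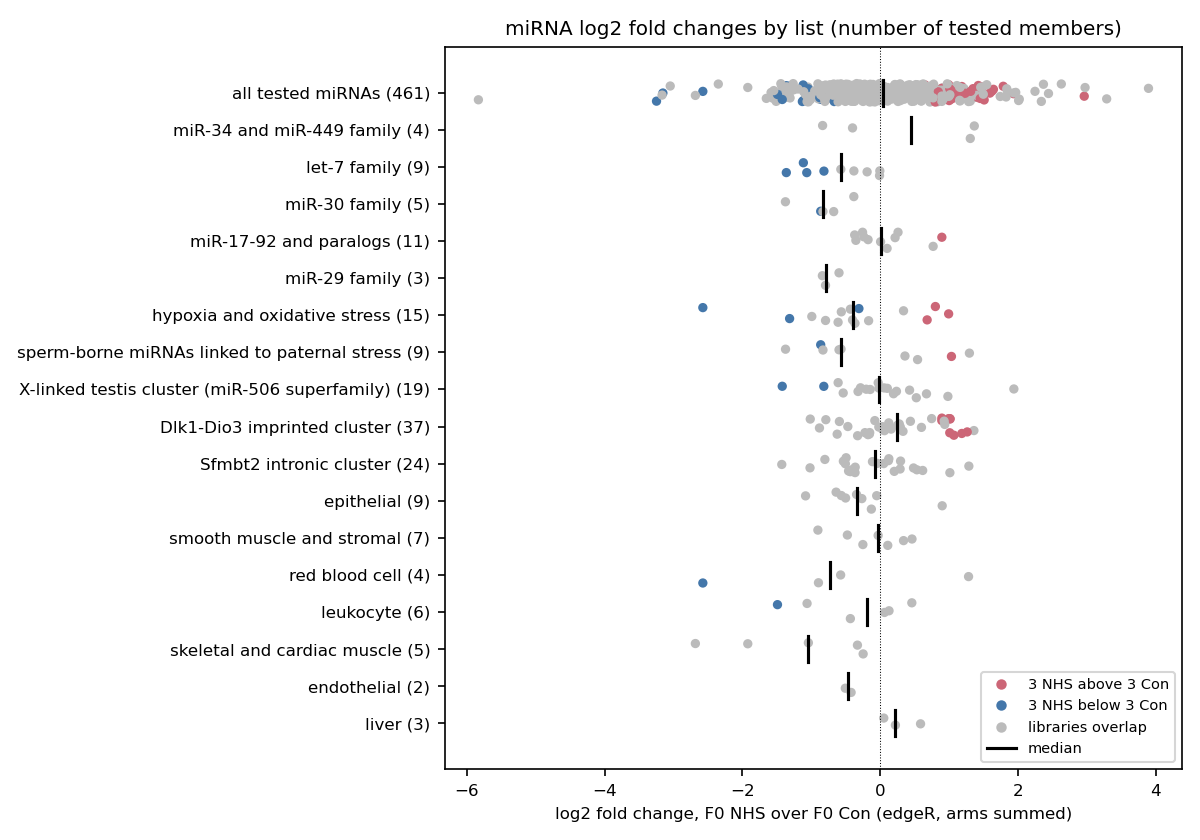
Log2 fold change of each tested miRNA, NHS over Con with arms summed (x axis), for all 461 tested miRNAs and for 17 lists (y axis; vertical position within a list is random). Points are miRNAs, coloured where all NHS libraries lie above (red) or below (blue) all Con libraries, and black lines are medians; the let-7, miR-30 and miR-29 points lie at or left of 0, and the Dlk1-Dio3 list has 9 red points and 0 blue ones.

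The levels above are sums over arms because the arm to which a miRNA's reads were assigned differed from library to library. Of 318 miRNAs with both arms listed and at least 20 reads in each library, the more abundant arm was not the same in all 6 libraries for 173. Of the 56 with a mean of at least 1000 TPM this held for 32, and for 29 the 5p share ranged over more than 50 percentage points. let-7c-5p was at 384, 575 and 35674 TPM in Con and at 2220, 478 and 14775 TPM in NHS. let-7c-1-3p held 33056 TPM in Con 1 and 1794 TPM in NHS 2, where let-7c-2-3p held 21466 TPM. Thus a different strand of let-7c led in libraries of the same group.

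miR-26a showed the same, with 81.1%, 81.8% and 15.5% of its reads on 5p in Con and 84.4%, 84.1% and 6.44% in NHS. miR-191-5p was at 12798, 2165 and 17144 TPM in Con and at 22011, 29805 and 17829 TPM in NHS, while with both arms miR-191 was at 18681, 9348 and 22865 TPM and at 27679, 37664 and 22121 TPM (0.84, SE 0.33; edgeR adjusted p = 0.458). Among the 56 abundant miRNAs, the median SD within groups was 1.04 on the log2 scale for the most abundant arm and 0.63 with the arms summed. A level read from 1 arm therefore carried the larger spread.

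Arm balance itself was compared as the log2 ratio of 5p to 3p reads, with limma on 318 miRNAs. It called 0 (0.0%), the smallest adjusted p being 0.792., and 13 (4.09%) had an unadjusted p under 0.05 miR-15b, which represses the apoptosis inhibitor Bcl2, had the smallest p of those with a higher 5p share. Its 5p strand held 5.10%, 24.3% and 16.2% of its reads in Con and 96.1%, 63.8% and 76.3% in NHS. Each control read mostly 3p and each NHS library mostly 5p (log2 ratio higher by 5.12, SE 1.42; limma adjusted p = 0.792). Other miRNAs also parted by main arm. The 5p share of miR-369 was 45.9%, 32.8% and 2.72% in Con and 56.9%, 84.7% and 72.0% in NHS. That of miR-136 was 54.1%, 56.8% and 54.3% in Con and 22.5%, 23.7% and 28.1% in NHS.

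**Figure D3:**
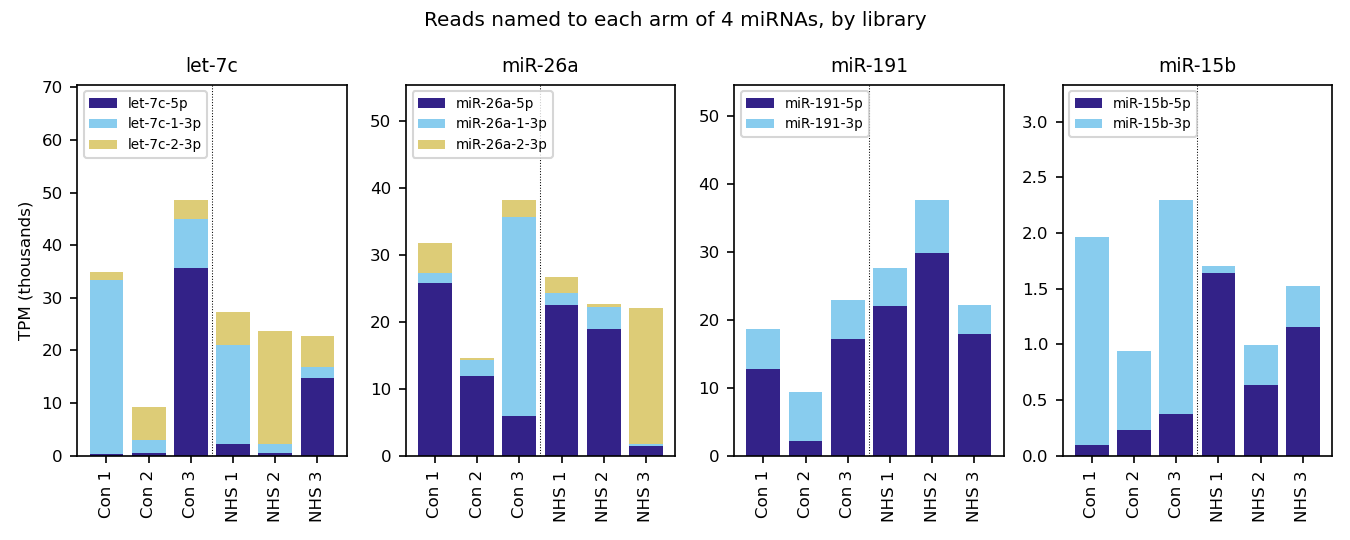
Level in units of 1000 TPM (y axis, from 0) of let-7c, miR-26a, miR-191 and miR-15b in the 6 libraries (x axis; the dotted line parts Con from NHS). Stacked colours are the arm names under which reads were listed; let-7c and miR-26a change their leading arm between libraries of the same group, and miR-15b is mostly 3p in Con and mostly 5p in NHS.

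Rfam families are listed by identifier, and the files do not pair the identifiers with names. Of 231 tested, edgeR called 0 (0.0% in each direction), the smallest adjusted p being 0.0864., and 46 (19.9%) had an unadjusted p under 0.05 DESeq2 called 27 (11.7%), 9 higher and 18 lower. The NHS libraries lay above all controls for 20 families (8.66%) and below them for 21 (9.09%).

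RF01960 was the most abundant of those with no overlap. It stood at 5983, 5700 and 3853 TPM in Con and at 896, 943 and 1008 TPM in NHS (-2.35, SE 0.68; edgeR adjusted p = 0.0864; DESeq2 adjusted p = 0.00224). The 3 NHS libraries were close to each other and all well below the controls. RF00071 was at 105, 34.0 and 101 TPM in Con and at 7.78, 8.63 and 16.1 TPM in NHS (-2.41, SE 0.71; edgeR adjusted p = 0.0864). RF00023 was at 1488, 1487 and 3704 TPM in Con and at 20382, 22069 and 3095 TPM in NHS (2.76, SE 0.83; edgeR adjusted p = 0.0864). RF01684 was at 50.6, 74.4 and 119 TPM in Con and at 1176, 723 and 117 TPM in NHS. Both were high in NHS 1 and NHS 2, the libraries high in mmu_piR_000691 and miR-5100, and not in NHS 3. Without NHS 3, edgeR called 21 families, 10 higher and 11 lower, and over the 4 libraries low in novel_mir1 it called 17, 3 higher and 14 lower.

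Known piRNAs are also listed by identifier alone. Of 6463 tested, edgeR called 0 (0.0% in each direction), the smallest adjusted p being 0.188., and 503 (7.78%) had an unadjusted p under 0.05 DESeq2 called 23 (0.356%), 6 higher and 17 lower. The NHS libraries lay above all controls for 598 entries (9.25%) and below them for 114 (1.76%). mmu_piR_000619 had the smallest p, at 125, 174 and 59.0 TPM in Con and at 2.95, 3.67 and 5.15 TPM in NHS (-5.66, SE 1.001; edgeR adjusted p = 0.188; DESeq2 adjusted p = 7.07e-10). mmu_piR_007729 was at 418, 257 and 198 TPM in Con and at 33.1, 37.48 and 37.48 TPM in NHS (-3.50, SE 0.77; edgeR adjusted p = 0.383). In both, every NHS library was below every control, NHS 3 included. mmu_piR_022097, the second most abundant entry, was at 4257, 2183 and 3420 TPM in Con and at 9053, 4458 and 25820 TPM in NHS (1.76, SE 1.08; edgeR adjusted p = 0.698).

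Predicted miRNA loci are hairpins that the submitters' prediction scored. Of 299 tested, 4 fell in exposed sperm (1.34%) and 0 rose (0.0%) in edgeR's test, with 19 at an unadjusted p under 0.05 (6.35%), and DESeq2 called 6 (2.01%), all lower. The NHS libraries lay above all controls for 25 loci (8.36%) and below them for 12 (4.01%). All NHS libraries lay below all controls at all 4 loci. The median log2 fold change of the class was 0.22, with 58.5% of loci higher, and without TMM scaling 0.75, with 75.3% higher.

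By its deposited coordinates, novel_mir4212 overlaps Scube2, whose product helps release hedgehog ligands, on the same strand and within a UTR exon. Its mature strand had no exact match in any GENCODE transcript, Scube2 included, so where its reads came from is not shown. novel_mir4212 was at 35.1, 34.3 and 110 TPM in Con and at 1.91, 2.55 and 0.662 TPM in NHS (-5.72, SE 1.07; edgeR adjusted p = 0.0107). novel_mir6 was placed by the submitters on the strand opposite an intron of Jarid2, a partner of the Polycomb repressive complex. Whether its reads came from that locus was not tested. It was at 117, 724 and 113 TPM in Con and at 15.3, 18.3 and 14.0 TPM in NHS (-5.21, SE 1.05; edgeR adjusted p = 0.0130). Con 2 was the highest library, and without it the fold change was -3.07 (edgeR adjusted p = 0.0580), so that call rested on it.

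novel_mir5550 lies in an exon of Gm26083, a small Cajal body RNA, within the lincRNA Snhg20. It was at 23.8, 1.89 and 33.8 TPM in Con and at 0.324, 0.238 and 0.945 TPM in NHS (-5.12, SE 1.20; edgeR adjusted p = 0.0397). This was the call that remained over the 4 libraries low in novel_mir1 (-7.19; edgeR adjusted p = 0.0115). novel_mir4375 lies opposite a UTR exon of Kmt5c, a histone H4 methyltransferase. It was at 3.57, 1.18 and 13.1 TPM in Con, and the 3 NHS libraries together held 5 reads, all in NHS 2 (edgeR adjusted p = 0.0397). With so few reads its fitted fold change depends on the prior count and is not given. Without NHS 1 or without NHS 2, 0 of the 4 loci passed, and without any single control 2 loci were called.

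**Figure D4:**
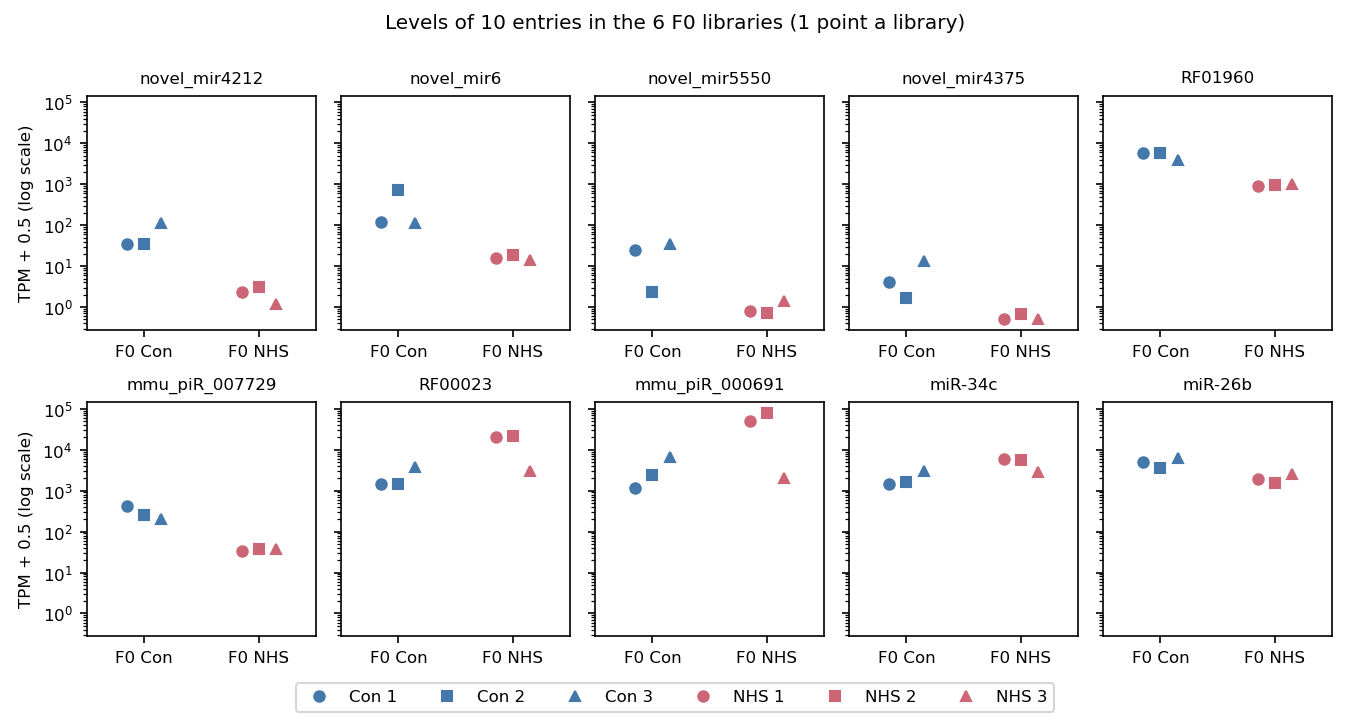
Levels of 10 entries as TPM + 0.5 on a shared log axis (y), in F0 Con (blue) and F0 NHS (red); each point is a library. The 4 predicted loci that fell, RF01960, mmu_piR_007729 and miR-26b have all NHS libraries below all Con libraries, whereas RF00023, mmu_piR_000691 and miR-34c are high in NHS 1 and NHS 2 only.

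Predicted piRNAs are short sequences that the submitters placed in copies of transposons. Of 1114 tested, edgeR called 0 (0.0% in each direction), the smallest adjusted p being 0.414, and 49 (4.4%) had an unadjusted p under 0.05, and DESeq2 called 15 (1.35%). The NHS libraries lay below all controls for 51 entries (4.58%) and above them for 47 (4.22%). In form these sequences were not like canonical piRNAs. Their mean length weighted by reads was 20.9 to 21.3 bases, 2.47% to 7.62% of the reads were 26 to 31 bases long, 16.4% to 24.8% began with T and 12.7% to 24.6% had A at position 10. None of these read-weighted measures separated the groups. With each entry counted once, mean length was 20.6 to 21.3 bases in Con and 21.62 to 21.66 in NHS, with no overlap (exact permutation p = 0.1, adjusted 0.4 over 4 measures).

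The shares of reads by repeat label separated the groups for 3 of 6 labels. All labels share a common total, so a larger share of one lowers the others, and the differences are not independent. LINE/L1 copies, the main transposon silenced by piRNAs in the mouse germ line, took 37.2%, 23.9% and 35.5% of predicted piRNA reads in Con and 16.3%, 20.1% and 18.2% in NHS. ERV1 copies took 9.30%, 19.05% and 9.97% in Con and 23.8%, 25.9% and 39.6% in NHS. ERVL copies took 10.6%, 11.1% and 7.71% in Con and 6.04%, 6.49% and 6.09% in NHS. For these 3 labels the groups did not overlap (exact permutation p = 0.1 each, the smallest possible, adjusted 0.2 over 6 labels). ERVK, at 13.3% to 24.8% in Con and 12.3% to 37.0% in NHS, and MaLR copies overlapped. With each entry counted once, L1 was at 32.1% ± 1.05 in Con and 29.7% ± 0.22 in NHS (SD, n = 3), still with no overlap, while ERV1, at 7.42% ± 0.18 and 7.79% ± 0.31, and ERVL overlapped. The ERV1 and ERVL differences thus lay in how many reads some entries had rather than in the number of entries.

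A repeat label does not show that a read came from a transposon. The sequences were therefore searched for exact matches in GENCODE vM21 transcripts of structural RNA (rRNA, snoRNA, snRNA and the like). They were also searched for in Gm42418, a locus over an rRNA gene on chromosome 17. No tRNA class other than mitochondrial tRNA was searched, so fragments of other tRNA could not be found. Of the 1114 tested predicted piRNAs 65 matched a structural RNA transcript. Of these 45 were lower and 20 higher in NHS, with a median of -1.12, against 454 lower and 593 higher of the 1048 that matched neither (median 0.23). The matching entries, with those of Gm42418, took 22.1%, 2.31% and 17.6% of predicted piRNA reads in Con and 2.66%, 5.09% and 4.42% in NHS. They were high in Con 1 and Con 3, and Con 2 was the lowest of all. Among the predicted miRNA loci, 13 of 17 that matched structural RNA were lower (median -0.66).

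novel_pir661187, labelled LINE/L1, occurs in full in 10 snoRNA genes, among them the U3 genes Rnu3a and Rnu3b1. It was at 1157, 0.0945 and 797 TPM in Con and at 143, 396 and 0.189 TPM in NHS, and made up 31.7% of the L1 reads of Con 1. It was nearly absent from Con 2 and NHS 3. Without all entries that matched structural RNA, L1 took 25.1%, 23.2% and 27.2% of the reads in Con and 14.8%, 16.4% and 15.3% in NHS, and the groups were still apart. ERV1 then took 11.9% to 19.5% in Con and 24.5% to 41.4% in NHS, and ERVL 9.15% to 13.3% and 5.99% to 6.67%. Fragments of RNA outside the searched classes, and of any structural RNA missing from the searched transcripts, rRNA included, stayed in these shares. Without the 6 most abundant predicted piRNAs, L1 (30.6% to 31.7% against 17.999% to 25.96%), ERV1 (10.2% to 13.3% against 20.2% to 23.8%) and ERVL (8.78% to 14.2% against 7.18% to 8.66%) also did not overlap.

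Among the entries lower in NHS, novel_pir790242 was at 29.9, 56.5 and 10.5 TPM in Con and at 0.793, 0.714 and 0.993 TPM in NHS (-5.56, SE 1.34; edgeR adjusted p = 0.414; DESeq2 adjusted p = 9.15e-06). novel_pir790232 and novel_pir790213 end at the same base and begin upstream of it, so the 3 are 1 family of overlapping reads and not 3 observations. The sequence also occurs in transcripts of Lars2, Gm15564 and AA474408, so the L1 label does not show where these reads came from. None of the 3 matched a structural RNA transcript, so they stayed in the shares without such matches. novel_pir745277, labelled ERVL-MaLR, occurs in Gm42418 and was at 40.7, 2.503 and 30.5 TPM in Con and at 0.685, 1.02 and 0.803 TPM in NHS (-5.09, SE 1.39; edgeR adjusted p = 0.518). novel_pir83653 and novel_pir249668 matched no transcript. The structural classes searched held no tRNA other than mitochondrial tRNA, so this does not show that their reads came from ERV1 copies. Together these entries held 8.61% to 45.3% of ERV1 reads in Con and up to 64.1% in NHS, with the highest shares in Con 2 and NHS 3.

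**Figure D5:**
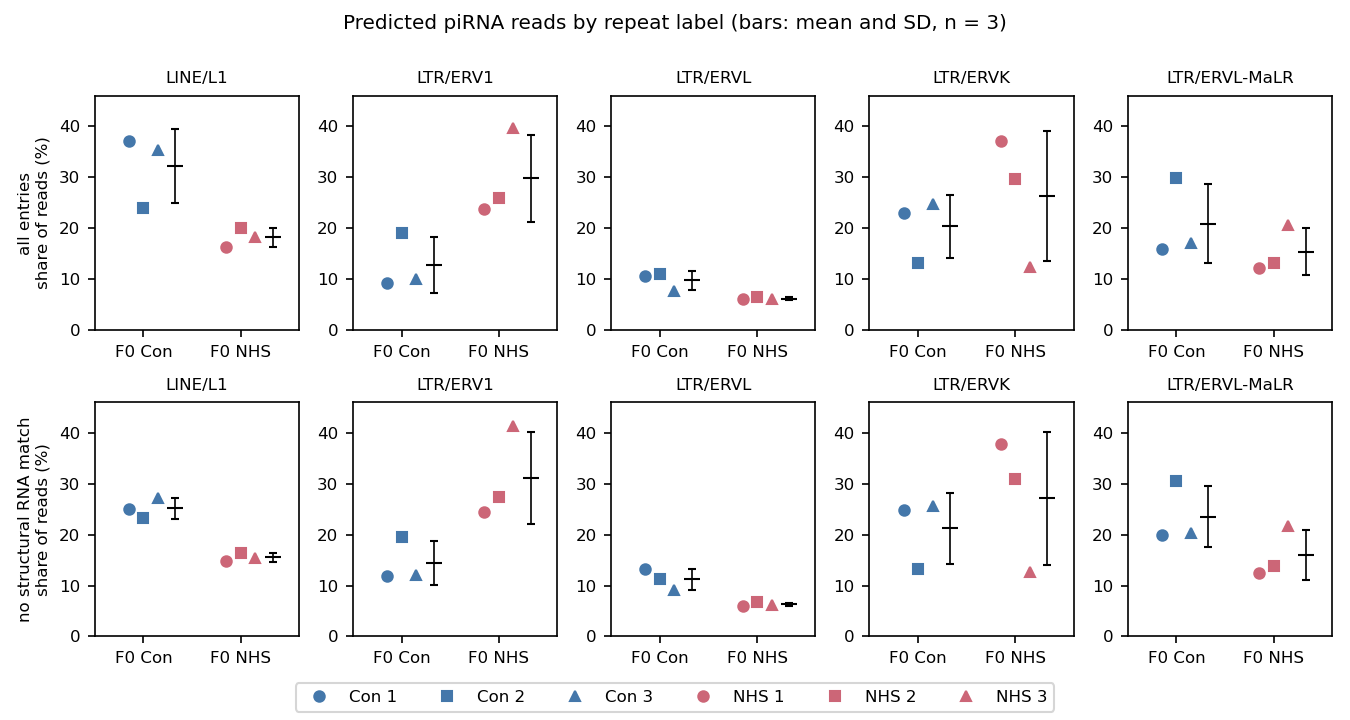
Share of predicted piRNA reads (%, y axis, from 0) by repeat label for all entries (top) and without entries that match a structural RNA transcript (bottom), in F0 Con (blue) and F0 NHS (red); points are libraries and black bars the group mean and SD (n = 3). LINE/L1 and ERVL lie lower and ERV1 higher in all NHS libraries in both rows, and ERVK and ERVL-MaLR overlap.

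Predicted siRNAs were the rarest class, at 0.0324%, 0.0321% and 0.0244% of reads in Con and 0.0326%, 0.0484% and 0.0371% in NHS. The lowest NHS library exceeded the highest control by a narrow margin, and with shares taken over the named classes only the groups overlapped. Of 65 tested, edgeR called 0 (0.0% in each direction), with 2 at an unadjusted p under 0.05 (3.08%), both lower in NHS, and DESeq2 called 2 (3.08%), novel_sir15342 and novel_sir10851. The NHS libraries lay below all controls for 2 entries (3.08%) and above them for 0 (0.0%). novel_sir15342 was at 5.49, 1.18 and 4.06 TPM in Con and at 0.288, 0.136 and 0.236 TPM in NHS (-4.21, SE 1.30; edgeR adjusted p = 0.318; DESeq2 adjusted p = 3.50e-05). All its NHS libraries lay below all controls.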

How the data were processed

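Small RNA of mouse sperm was sequenced in 18 libraries, of which the 6 of generation F0 were compared. The authors deposited a list of small RNAs per library with raw counts and TPM values, per the file headers. The deposited TPM is the count per 1000000 reads of the library (checked for all entries of the F0 libraries within a tolerance of 0.005). The submitters' processing notes name mm10. For aligner, filters and prediction tools: not given in the sources used here. Deposited positions and sequences of predicted entries were used as given.

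Counts were fitted by class with edgeR 4.0.16 (R 4.3.3; TMM, quasi-likelihood F test, entries with at least 1 CPM in 3 libraries, one mean per group over all libraries whose list holds the class whole, 13 to 18). Tests were two-sided with Benjamini-Hochberg adjustment within a class and a threshold of 0.05. Each SE given with an edgeR result is the absolute log2 fold change divided by the square root of the F statistic. DESeq2 1.42.0 was run beside edgeR. Arm balance was tested with limma 3.58.1 on log2 ratios (pseudocount 0.5 reads). Shares were tested by exact permutation. The edgeR and limma tests were checked on simulated counts of miRNAs, known piRNAs and miRNA arms. Sequences came from RefSeq (GRCm38.p6; 116 of 148 miRNA names matched, none printed from chromosome 18). Sequences of at least 18 bases were matched to 3907 structural transcripts of GENCODE vM21. Named entries were the 6 to 10 most abundant per class, the 4 to 5 with the smallest p in each direction, called entries and leading list members. For classes with identifiers only, 2 per direction are printed. The members and lists were chosen with earlier results of these data known.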

Additional observations from a re-analysis of the deposited data

How the results depend on the processing

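Over the alternatives other than leaving out a library, 31 counts of calls stayed within 1.5 times and 16 did not, and among entries named or listed as most abundant 289 values kept direction and side of the threshold, 28 came to pass it, 8 no longer passed it and 7 reversed. DESeq2 called 2 miRNAs, 23 known piRNAs, 27 Rfam families, 15 predicted piRNAs and 2 predicted siRNAs. Without a filter on low counts there were 12 calls for known piRNAs, 15 for Rfam families, 10 for predicted miRNA loci and 6 for predicted piRNAs. Without TMM scaling there were 1 for known piRNAs and 2 for predicted loci, and the median log2 fold change moved from 0.03 to 0.24 for known piRNAs, 0.30 to 0.09 for Rfam families, 0.22 to 0.75 for predicted loci, 0.18 to 0.43 for predicted piRNAs and 0.50 to 0.95 for predicted siRNAs. With the F0 libraries fitted alone 2 predicted loci were called. A term for novel_mir1 was then added, which set Con 2 and NHS 3 (above 1000 TPM) apart from the other libraries. With it, 30 predicted piRNAs and 3 predicted siRNAs were called. In the 4 libraries low in novel_mir1, a choice made after seeing the data, 17 Rfam families and 1 predicted locus were called. The causes were not tested.

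Replicate numbers did not pair the libraries: same-numbered deviations correlated at 0.27, -0.49 and -0.46 for miRNAs. With the replicate block 3 predicted loci were called and 0 Rfam families, and novel_mir6 had an edgeR adjusted p of 0.718; novel_pir333349 became 0.88 (log2).

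In the 4 libraries, differences turned to 0.38 for miR-143, 0.0025 for novel_mir1, 0.32 for novel_mir4 and 1.01 for novel_pir333349 (log2), and to -0.436 (Rfam share), 0.0383 (predicted miRNA share), -1.55 (reads of 26 to 31 bases) percentage points, -0.175 bases (mean length), -0.5 miRNAs and -216 piRNAs at 1 TPM or more. The term for novel_mir1 turned novel_pir359883 to -0.28 and novel_pir333349 to 0.46. With each entry counted once, ERVL turned to 0.359, MaLR to 0.268 and T at position 1 to 0.369 percentage points.

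Leaving out each library gave 0 to 21 calls for Rfam families (21 without NHS 3) and 0 to 4 for predicted loci (0 without NHS 1 or NHS 2). Log2 fold changes ran from -0.54 to 0.0894 (let-7c), -0.83 to 0.55 (miR-143), -5.63 to 3.66 (novel_mir1), -8.43 to 2.06 (novel_mir4), -0.26 to 4.56 (novel_pir83653), -0.88 to 0.88 (novel_pir359883) and -4.77 to 4.24 (novel_pir333349). Share differences ran from -0.505 to 0.937 (Rfam), -3.40 to 0.0613 (predicted miRNA), -0.0102 to 0.172 (predicted piRNA), -2.72 to 1.06 (T at position 1), -4.34 to 1.997 (A at position 10) and -1.22 to 1.35 (26 to 31 bases) percentage points. Mean length differed by -0.112 to 0.107 bases, known piRNAs at 1 TPM or more by -525 to 1280 and predicted piRNAs by -7.33 to 99.7. With 3 libraries a group the smallest exact p is 0.1, and levels of a few reads, as at novel_mir4375, limit precision.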
